A study of Mus musculus with 9 samples.

Results

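The oogenesins and their PRAME-like relatives are a family of genes transcribed mainly in germ cells, and 7 of them were followed here among the 22526 genes of the deposited table: Oog1, Oog2, Oog3, Oog4, Pramef12, Gm13103 and Gm13089. They were found by matching gene identifiers to symbols, and all 7 are in the table. Pramef12 now carries the symbol Pramel13, Gm13103 the symbol Pramel27 and Gm13089 the symbol Pramel23. The first 5 were listed by family name. Gm13103 and Gm13089 were chosen by their measured FPKM in these libraries, as genes that rose in aged oocytes and fell with nicotinamide mononucleotide (NMN), so their values in every comparison are a description and carry no test.

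The study measured mRNA in oocytes of ICR mice, an outbred strain, that had matured to metaphase II, the stage at which the ovulated egg waits for fertilisation. Of the 9 libraries, 3 came from oocytes labelled young, 3 from oocytes labelled aged, and 3 from a group labelled with NMN supplementation. NMN is a compound from which cells make the coenzyme NAD. The study's question is whether NMN counters the decline in oocyte quality with maternal age. The labels give no age in weeks or months, no dose, no age for the mice of the NMN group, and no number of oocytes or mice behind a library. The p-values thus rest on the spread among the 3 libraries of each group, pooled over the groups and drawn towards that of other genes. That spread may be technical.

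PRAME family proteins are built from leucine-rich repeats. PRAME itself, the member first described in melanoma, can serve as the substrate receptor of a ubiquitin ligase built on cullin 2 and the elongins, and can repress signalling by the retinoic acid receptor. In the mouse the family has expanded into clusters of near-copies, many of them transcribed in germ cells and the early embryo. The oogenesins are transcribed while the oocyte grows. The matured oocyte is largely silent in transcription, so its transcripts are those stored or retained from growth.

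The stretches just before the annotated start sites are shown for 5 members because they set the members apart as sequences: the most abundant one (Oog3), the one that was lower in every aged library than in any young one (Oog1), both Gm genes, and Pramef12, which lacks the shared words. Each is the 150 bases before the start in RefSeq on the build GRCm38.p6, written on the strand of the gene. They lie at chr4:144162652-144162801 (Oog3, minus strand), chr12:87602515-87602664 (Oog1, plus strand), chr4:143846347-143846496 (Gm13103, plus strand), chr4:143702712-143702861 (Gm13089, minus strand) and chr4:144408465-144408614 (Pramef12, minus strand). Capitals mark AAATCTGAA, GGGTGTGGC and TATATA.
Oog3: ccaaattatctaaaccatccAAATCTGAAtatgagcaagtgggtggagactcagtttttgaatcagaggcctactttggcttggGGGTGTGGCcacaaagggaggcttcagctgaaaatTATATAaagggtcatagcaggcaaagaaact
Oog1: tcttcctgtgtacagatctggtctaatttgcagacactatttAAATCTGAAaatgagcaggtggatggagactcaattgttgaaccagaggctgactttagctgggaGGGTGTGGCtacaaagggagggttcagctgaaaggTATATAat
Gm13103: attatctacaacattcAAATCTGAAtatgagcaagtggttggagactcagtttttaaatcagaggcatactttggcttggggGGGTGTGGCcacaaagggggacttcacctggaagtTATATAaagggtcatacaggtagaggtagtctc
Gm13089: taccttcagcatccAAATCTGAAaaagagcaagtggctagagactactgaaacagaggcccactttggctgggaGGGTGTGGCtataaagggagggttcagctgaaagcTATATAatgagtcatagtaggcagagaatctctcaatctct
Pramef12: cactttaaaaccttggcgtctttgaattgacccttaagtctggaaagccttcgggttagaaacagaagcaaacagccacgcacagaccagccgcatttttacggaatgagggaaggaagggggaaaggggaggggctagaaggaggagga

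Libraries held an estimated 16.3 M to 19.3 M reads (M, mega), and 15762 to 16940 genes were above 0 FPKM (fragments per length of transcript and per size of library). The first principal component held 41.1% of the variance and set aged replicate 2 apart, at 56.9 against -28.6 to 22.8 in the other 8 libraries. Of 15 cumulus and granulosa markers 11 are in the table, and 5 of these (Ptx3, Inha, Fst, Tnfaip6 and Foxl2) were above 0 only in aged replicate 2. The 11 summed to 5.41 to 6.80 FPKM in the young libraries, to 3.50, 21.7 and 4.06 in the aged ones and to 3.19 to 4.37 with NMN. Outside aged replicate 2 nearly all of this was Cyp19a1, at 3.05 to 6.205 FPKM. Cyp19a1 itself was lowest in aged replicate 2 (3.03 FPKM). All 11 oocyte markers, among them Gdf9 and the zona pellucida genes, were present in every library and summed to 10094 to 12457 FPKM in young, 13069 to 14295 in aged and 11951 to 13686 in NMN libraries. In bulk libraries, fewer cells of a type and less RNA per cell cannot be told apart.

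The 4 oogenesins and Pramef12 were abundant in every library, and the 2 Gm genes were not. Oog3 had the highest mean over the 9 libraries, 1488 FPKM, the 24th highest of all genes in the table. Oog1 followed at 429.5 FPKM, then Oog4 at 79.4, Oog2 at 35.4 and Pramef12 at 24.8. Gm13089 and Gm13103 had means of 2.21 and 0.797 FPKM, carried by the aged group. FPKM are scaled to transcript length, so these levels can be set side by side, within the limits of how reads were split between near-copies (below). In the young and in the aged group, no 2 neighbours in this order overlapped in their libraries, as the plot of values by library shows. In the NMN group Oog2 (24.0 to 35.9 FPKM) and Pramef12 (22.9 to 38.9) overlapped, so their order there lies within the spread.

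**Figure D1:**
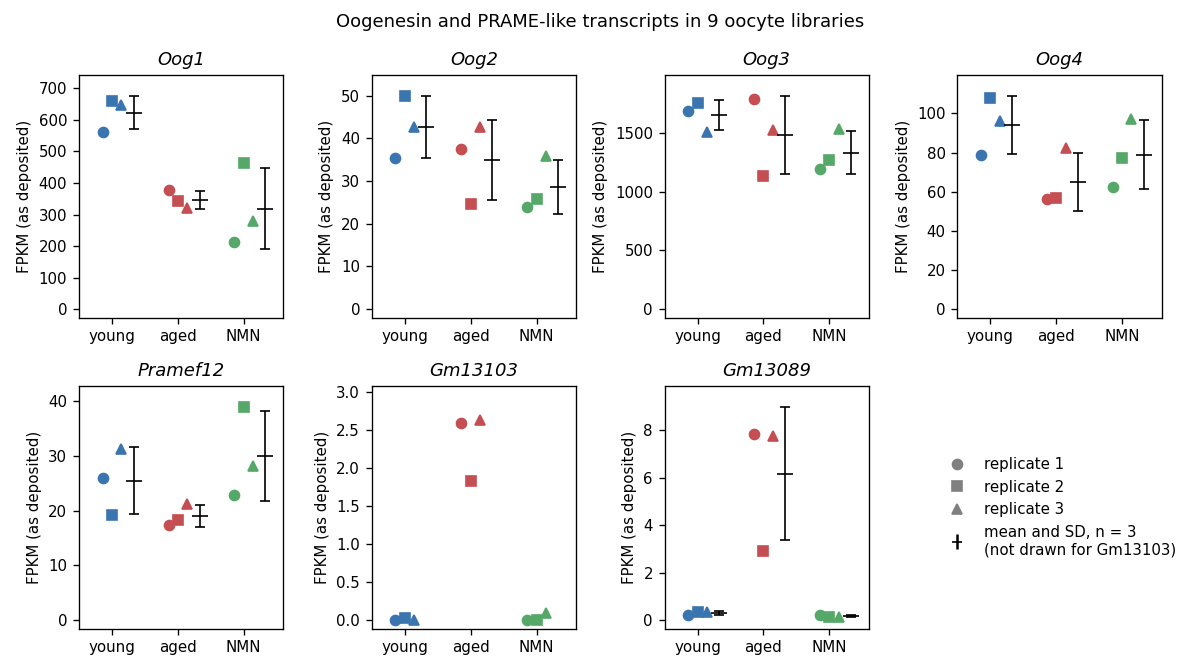
FPKM as deposited for the 7 genes, 1 panel each with its own vertical axis. Points are libraries (shape for the replicate number), and the bar beside them is the mean with its SD (n = 3), left out for Gm13103, which is listed at 0 in 4 libraries. All aged points of Oog1 lie below the young ones, and Gm13103 and Gm13089 are near 0 outside the aged group.

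Oog1 was lower in aged than in young oocytes in every library, but the change did not pass the test across all genes. Oog1 (ENSMUSG00000096576), the founding oogenesin, whose protein has been described to bind a Ral exchange factor, was at 562, 658.5 and 647.6 FPKM in young, 377, 342 and 321 in aged and 215, 462 and 281 in NMN libraries. The young libraries lie above all others, while the aged and NMN libraries overlap. Its log2 change from young to aged was -0.91 ± 0.28 (SE), a ratio of means of 0.557, with a limma adjusted p of 0.135. From young to NMN the log2 change was -1.09 ± 0.28, with a limma adjusted p of 0.276. From aged to NMN it was -0.18 ± 0.28 (limma adjusted p = 0.852), running from -0.52 without NMN replicate 2 to 0.09 without NMN replicate 1, and the NMN libraries spread more widely (128 FPKM SD) than the young (52.8) or aged ones (28.6). With library quality weights limma called Oog1 lower in aged than in young (-0.94, adjusted p = 0.0186) and in NMN than in young oocytes (-1.17, adjusted p = 0.0333). Under these weights 906 and 73 of all 9168 tested genes were called in the same comparisons. Without aged replicate 2 the change of Oog1 from young to aged was -0.83.

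Oog3, the most abundant member, did not pass the test in any comparison. Oog3 (ENSMUSG00000050810) was at 1687, 1752 and 1508 FPKM in young, 1789, 1134 and 1525 in aged and 1190, 1270 and 1535 in NMN libraries. The lowest value of all is aged replicate 2 and the highest is aged replicate 1, so the aged group spans the whole range. The log2 change from young to aged was -0.24 ± 0.23 (limma adjusted p = 0.622) and came to 0.01 without aged replicate 2. From aged to NMN it was -0.13 ± 0.23 (limma adjusted p = 0.876) and from young to NMN -0.37 ± 0.23 (limma adjusted p = 0.717).

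Oog2 and Oog4 were on average lowest in NMN and in aged oocytes respectively. Oog2 (ENSMUSG00000066030) was at 35.3, 49.9 and 42.7 FPKM in young, 37.4, 24.6 and 42.7 in aged and 24.0, 25.9 and 35.9 in NMN libraries. Oog4 (ENSMUSG00000047799) was at 78.7, 107.9 and 95.9 FPKM in young, 56.2, 57.0 and 82.1 in aged and 62.5, 77.2 and 97.3 in NMN libraries. For both, every pair of groups overlaps in FPKM as deposited. Oog4 had a log2 change of -0.60 ± 0.24 from young to aged (limma adjusted p = 0.229) and of 0.28 ± 0.24 from aged to NMN (limma adjusted p = 0.701), the latter from 0.13 without aged replicate 2 to 0.48 without aged replicate 3. Oog2 had log2 changes of -0.36 ± 0.28 from young to aged (limma adjusted p = 0.521) and of -0.63 ± 0.28 from young to NMN (limma adjusted p = 0.611). The first of these was -0.07 without aged replicate 2.

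Pramef12 was on average lowest in aged and highest in NMN oocytes. Pramef12 (ENSMUSG00000028591), which is known for its role in the stem cells of the male germ line, was at 25.9, 19.2 and 31.3 FPKM in young, 17.3, 18.4 and 21.3 in aged and 22.9, 38.9 and 28.2 in NMN libraries. All NMN libraries lie above all aged libraries, and the young libraries overlap with both. The log2 change from aged to NMN was 0.61 ± 0.26, a limma adjusted p of 0.413, and the change was 0.38 without NMN replicate 2. From young to aged it was -0.45 ± 0.26 (limma adjusted p = 0.389) and from young to NMN 0.17 ± 0.26 (limma adjusted p = 0.866).

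None of the 5 genes listed by family name passed the test in any comparison. For aged against young, limma called 0 of 5, where 2.18% of all 9168 tested genes were called, and Oog1 and Oog4 had an unadjusted p under 0.05, as had 18.3% of all tested genes. All 5 log2 changes were negative, with a median of -0.45, against 5057 negative changes and a median of -0.05 over all tested genes. For NMN against aged limma called 0 of 5 against a background of 0.218%, with Pramef12 alone at an unadjusted p under 0.05 (11.3% of all tested genes), 3 changes negative and 2 positive. For NMN against young it called 0 of 5 against 0.0764%, with Oog1 and Oog2 at an unadjusted p under 0.05 (8.12% of all tested genes) and 4 changes negative. That background is 7 genes, and with the replicate number as a block it was 0, with 0 of 5 members called. With library quality weights it called Oog1 in the comparisons of aged and of NMN with young, where 906 and 73 of all 9168 tested genes were called.

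The same counts were made for groups that do not overlap after scaling between libraries. Oog1 alone of the 5 was lower in every aged than in every young library, where 12.7% of all tested genes were. Pramef12 alone was higher in every NMN than in every aged library, where 9.27% of genes were. Oog1, Oog2 and Oog3 were lower in every NMN than in every young library, where 8.40% of genes were, but Oog2 and Oog3 overlap in the values as deposited. The aged group enters the first 2 of these comparisons and the young group the first and the last, so they are not independent of each other. The oocyte markers summed higher in every aged than in every young library, opposite in direction to Oog1. Most of that sum was H1foo and Gdf9, each of which overlapped between these groups. In FPKM as deposited, H1foo was at 5063 to 7650 in young and 7225 to 8228 in aged, Gdf9 at 2659 to 2780 and 2127 to 3354. Of the 11 markers only Zp3, Nlrp5, Ooep and Mos did not overlap, all higher in aged. The part of the marker difference in the results for the 5 genes was not tested.

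Gm13103 and Gm13089 stood above 1 FPKM only in the aged libraries. Gm13089 (ENSMUSG00000070617) was at 0.199, 0.350 and 0.345 FPKM in young, 7.83, 2.92 and 7.77 in aged and 0.197, 0.118 and 0.134 in NMN libraries. All aged libraries lie above all others, and aged replicate 2 is the lowest of the 3. The gene has 1 annotated transcript of 1807 nt, from which its reads were estimated at 6, 11 and 12 in young, 245, 86 and 234 in aged and 6, 4 and 4 in NMN libraries. The aged mean, 6.17 ± 2.82 FPKM (SD, n = 3), was 20.7 times the young mean of 0.298 ± 0.086 and 41.2 times the NMN mean of 0.150 ± 0.0419. Its log2 changes were 2.35 ± 0.32 from young to aged and -2.54 ± 0.32 from aged to NMN on the scale of log2(FPKM + 1), and 3.82 and -4.52 with 0.1 in place of 1.

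Gm13103 (ENSMUSG00000029451) followed the same course at a lower level. It was listed at 0, 0.029 and 0 FPKM in young, 2.59, 1.83 and 2.635 in aged and 0, 0 and 0.0915 in NMN libraries. On its longest annotated transcript of 1833 nt, the only values above 0 outside the aged group would come to 0.92 reads (young replicate 2) and 2.78 reads (NMN replicate 3), under the floor of 3 reads, so no fold is given. On the scale of log2(FPKM + 1) the change was 1.71 ± 0.20 from young to aged and -1.68 ± 0.20 from aged to NMN. Both Gm genes were higher in every aged than in every young library, where 11.5% of all tested genes were, and lower in every NMN than in every aged library, where 6.68% were. Their choice fixed both counts. They passed the filter of 1 FPKM in 3 libraries only through the aged group, and their sharing of the aged libraries ties the 2 comparisons together. Of 10 two-cell embryo markers 9 are in the table, and they summed to 41.7 to 72.3 FPKM in young, 71.4, 208.6 and 109.6 in aged and 36.2 to 92.4 in NMN libraries. Nearly all of this was Tcstv1 and Tcstv3, and the 6 Zscan4 genes were at 0 to 0.607 FPKM each. The part of these markers in the values of the Gm genes was not tested. The summed cumulus markers were raised in aged replicate 2, where both Gm genes were at their lowest among the aged libraries.

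Across the 9 libraries some members moved together and others apart. On the scaled log2 values the highest Pearson r was 0.986, between Gm13103 and Gm13089, followed by 0.892 between Oog2 and Oog3 and 0.757 between Oog2 and Oog4. The lowest was -0.627, between Pramef12 and Gm13103. These are descriptions over 9 points that share libraries and groups, and the Gm genes were picked for the same pattern.

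Genes outside the family with the most alike patterns were sought among 7869 tested genes by Pearson r over the 9 libraries. For Oog1 they were Sgip1 (0.973) and Zc3h12d (0.962), and Dctd (0.972) is given for Oog3. For Oog2 they were Il7 and Lrr1 (0.969 each), for Oog4 Gsdmc3 (0.960) and Elp4 (0.952), and for Pramef12 Tgfbr1 (0.944) and Bcl2l1 (0.936). Gm13103 and Gm13089 had the same pair, Kpna2 (0.987 and 0.976) and Pls3 (0.972 and 0.989). Both Gm genes were picked for rising in aged oocytes and falling with NMN, so the shared pair restates that choice and is no finding. Kpna2, an importin alpha of nuclear import, was at 30.1 to 33.4 FPKM in young, 76.4 to 90.3 in aged and 34.9 to 40.2 in NMN libraries. Pls3, which codes for an actin-bundling plastin, was at 0.136 to 0.429 FPKM in young, 1.49 to 3.46 in aged and 0 to 0.257 in NMN libraries. Like the Gm genes, Pls3 passed the filter only through the aged group. Sgip1 passed it only through the young group, in which Oog1 was also highest. Its young mean was 1.097 FPKM, against 0.287 to 0.85 FPKM in the aged and NMN libraries. Zc3h12d was also low, at 0.334 to 2.19 FPKM over the 9 libraries. The 9 points share libraries and groups, and nothing about shared function is read from these values.

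How far the members can be told apart as sequences differs widely. The longest annotated transcript of each was broken into words of 50 bases, and each word was looked up in all annotated transcripts. Oog1 shared 88.6% of its words with other genes, chiefly Gm2042 (85.3%) and Gm10436 (57.1%), with which it aligned at 98.8% identity. Oog2 shared 45.2%, chiefly with Gm13084 (40.7%), and Gm13103 shared 49.2%, all with Gm13088. Oog3 shared 19.7%, mostly with Gm4350. Oog4 (0.7%), Pramef12 (0.0%) and Gm13089 (0.1%) shared under 1%. The values of Oog1, Oog2 and Gm13103 rest on how the authors' counting split reads between copies and are uncertain to that extent.

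**Figure D2:**
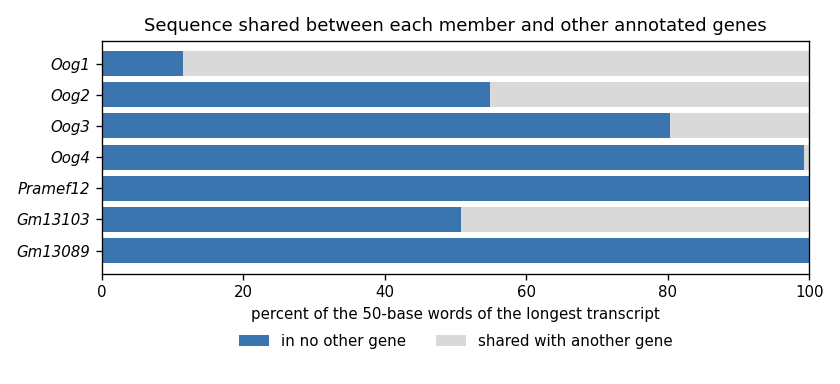
For each of the 7 genes, the percent of the 50-base words of its longest annotated transcript found in no other gene (blue) and shared with at least 1 other gene (grey). Oog1 has the most shared sequence at 88.6%, and Oog4, Pramef12 and Gm13089 are below 1%.

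Sums over the nearest copies depend less on that split. C87977 and Gm13023 for Oog1, and Gm4350 and Oog3 for Gm13103, also share words but are not in these sums. Oog1, Gm2042 and Gm10436 together were at 1052 ± 116 FPKM in young, 627 ± 69.5 in aged and 661 ± 126 in NMN oocytes (SD, n = 3), with every young library above all others. Gm2042 alone was at 92.9 ± 10.4 FPKM in young, 56.3 ± 12.2 in aged and 80.1 ± 13.0 in NMN oocytes, with a log2 change of -0.79 ± 0.19 from young to aged (limma adjusted p = 0.0709). Gm13103 and Gm13088 together were at 1.94, 1.17 and 2.23 FPKM in young, 5.29, 4.13 and 4.42 in aged and 0.981, 0.471 and 2.85 in NMN libraries. All aged sums lie above all others. Gm13088 alone overlapped between the groups, at 1.14 to 2.23 FPKM in young, 1.78 to 2.70 in aged and 0.471 to 2.76 in NMN libraries. No sum was made for Oog2 and its near-copy Gm13084, which aligned at 98.0% identity. Gm13084 was at 44.7 ± 4.71 FPKM in young, 53.9 ± 13.6 in aged and 36.1 ± 5.93 in NMN oocytes (SD, n = 3). From young to aged its mean rose, while that of Oog2 fell from 42.6 to 34.9 FPKM.

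As whole transcripts, Oog1 to Oog4 and the Gm genes aligned with one another at 74.8% to 88.8% identity, and Pramef12 with each of them at 59.9% to 61.9%. The closest pair of members was Oog3 and Gm13103, at 88.8%, although Oog3 is the most and Gm13103 the least abundant of the 7.

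The promoter windows (the bases shown above, extended by 100 further upstream and 50 past the start site) repeat this division in their identity. Those of Oog1 to Oog4 and the Gm genes aligned with one another at 73.9% to 85.1%. The window of Pramef12 aligned with each of them at 56.2% to 64.6%. AAATCTGAA and GGGTGTGGC are the 2 longest words, of 9 letters each, that the windows of Oog1 to Oog4, Gm13103 and Gm13089 have in common. AAATCTGAA begins 108 to 136 bases and GGGTGTGGC 43 to 76 bases before the start. The first letters of the 2 words are 60 to 66 bases apart, and TATATA begins exactly 35 bases after the start of GGGTGTGGC in all 6, overlapping neither. On either strand AAATCTGAA occurs in 0.4%, GGGTGTGGC in 1.3% and TATATA in 5.7% of the 32851 RefSeq promoters of this length. Pramef12 has none of the 3 words. The search for the 2 longest shared words left Pramef12 out, so its lack of them is no finding. The E-box CANNTG, bound by many basic helix-loop-helix factors, is in all 7 windows but also in 72.3% of all promoters. TAATTG, a word of the kind bound by homeodomain proteins such as NOBOX, is in those of Oog3, Oog4 and Pramef12 and in 8.0% of all, and TAATTA is in none of the 7 and in 5.3% of all. These are matches of letters in a window and show no binding.

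**Figure D3:**
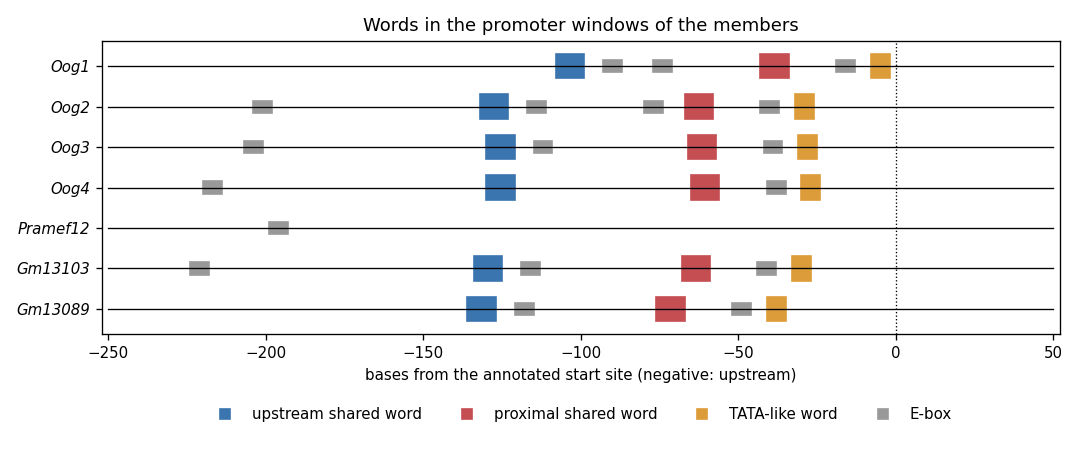
Positions of the 2 shared words of 9 letters (blue and red), of TATATA (orange) and of CANNTG (grey) in the promoter windows of the 7 genes, in bases from the annotated start site (dotted line, negative upstream). The same order and near-equal spacing is seen in 6 genes, and Pramef12 has only a CANNTG match.

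Both words together, on the strand of the gene, are in 11 of the 32851 promoters (0.033%). These are the 6 members, Gm13023 (Pramel25), Gm13084 (Pramel26), C87977 (Pramel29), C87499 (Pramel32) and Gm2042, the near-copy of Oog1. The words were taken from the members, so their presence in them is no finding, and the other 5 genes include near-copies of Oog1 and Oog2 that share their sequence. Those 5 had mean levels of 44.9 to 599.7 FPKM over the 9 libraries. Of 17 family genes with a promoter entry that lacks the pair, 2 were above 10 FPKM (Pramef12 and Pramef20), 11 were below 1 FPKM, and the median was 0.205 FPKM. A further 11 family genes, counted as having no promoter entry, could not be placed on either side. Of these, 3 were above 10 FPKM (Gm10436 at 274, C87414 at 179 and Gm3259 at 10.1) and 7 were below 1 FPKM. The near-copies Gm13103 and Gm13088, at 97.3% identity of transcript, fall on different sides of this line: Gm13088 lacks the pair of words and its promoter window aligned with that of Gm13103 at 60.8%. Gm13103 and Gm13089 have the words and were nevertheless near 0 outside the aged group.

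**Figure D4:**
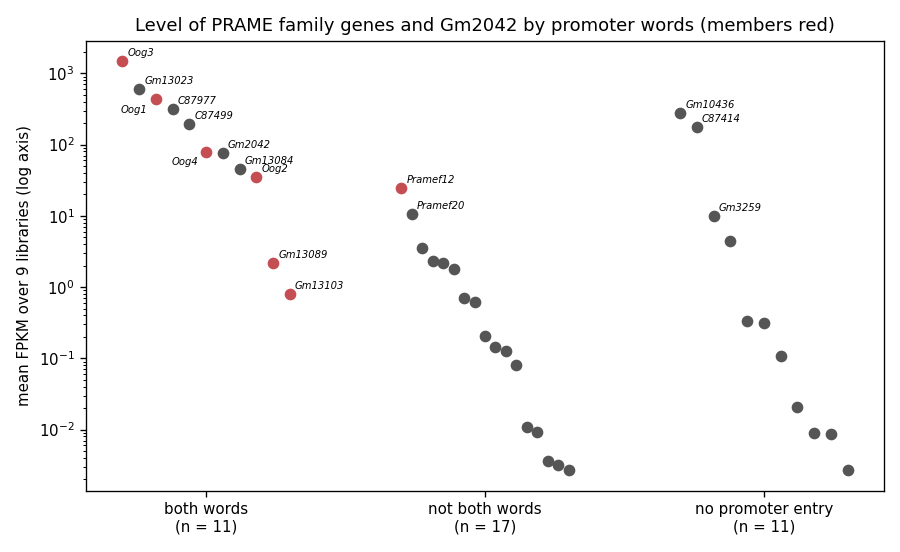
Mean FPKM over the 9 libraries (log axis) of PRAME family genes and Gm2042, with both 9-letter words in the promoter window, without both, or with no promoter entry, with the 7 members in red. The genes with both words lie between 0.797 and 1488 FPKM, and 9 of the 11 lie above 10 FPKM. Names are printed for the members and for genes above 10 FPKM.

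The 7 genes are part of a family of 38 in the table, of which 31 are not members. Summed over all 38, the family made up 1.43% ± 0.104 of the summed FPKM of a library in young, 1.06% ± 0.160 in aged and 1.09% ± 0.176 in NMN oocytes (SD, n = 3). Of the other 31 genes 14 could be tested. For aged against young limma called none higher and 1 lower, with 11 of 14 changes negative, a median log2 change of -0.56 against -0.05 over all genes, and 8 at an unadjusted p under 0.05. Over all tested genes 2.18% were called and 18.3% had an unadjusted p under 0.05. For NMN against aged it called 0, with 9 of 14 positive, a median of 0.19 and 3 at an unadjusted p under 0.05 (0.218% and 11.3% of all tested genes). For NMN against young it called 0, with 12 of 14 negative, a median of -0.35 and 1 at an unadjusted p under 0.05 (0.0764% and 8.12%). Without aged replicate 2 the medians for aged against young and NMN against aged were -0.34 and -0.045. With library quality weights 1 gene was called higher and 5 lower for aged against young, and 1 in each direction for NMN against aged. Under these weights 906 and 163 of all 9168 tested genes were called in the 2 comparisons.

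The 3 most abundant of these relatives, whose transcripts aligned with that of Oog1 at 96.0% (Gm13023), 95.4% (C87977) and 98.8% (Gm10436), were on average lower in aged than in young oocytes without passing the test. Gm13023 was at 734.5 ± 53.8 FPKM in young, 501.8 ± 51.8 in aged and 562.6 ± 97.7 in NMN oocytes (SD, n = 3), a log2 change of -0.62 ± 0.18 from young to aged (limma adjusted p = 0.112). C87977 (312 FPKM over all libraries) was at -0.60 ± 0.19 and Gm10436 (274 FPKM) at -0.66 ± 0.27, with limma adjusted p of 0.139 and 0.221. They share sequence with Oog1 and are not independent of it.

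The single called relative was D5Ertd577e, now Pramel48. It was at 3.99, 5.69 and 3.81 FPKM in young, 1.98, 0 and 0.726 in aged and 5.12, 6.40 and 4.39 in NMN libraries. Every aged library lies below all others. Its log2 change from young to aged was -1.67 ± 0.36 (limma adjusted p = 0.0453) and from aged to NMN 1.82 ± 0.36 (limma adjusted p = 0.104). The first was -1.26 without aged replicate 2, with a limma adjusted p of 0.0561. The call was lost without any one of 8 libraries, from the 6 libraries compared alone, without the filter, under the replicate block and with log2(FPKM + 0.1). Without aged replicate 1 it held (-2.08, limma adjusted p = 0.0191).

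Along chromosome 4 the 2 Gm genes lie in the same stretch. By gene order in GENCODE M21, 26 family genes are on chromosome 4, among them all members but Oog1, which is on chromosome 12. Gm13083, Gm13088, Gm13089, Gm13078, Gm13023, Gm13084, Gm13103 and Pramef6 follow one another as 8 consecutive genes of the table. Oog3 and Oog2 are neighbours in a second group, with Gm13102 and C87977 at its ends, and Pramef12 closes the cluster beside Pramef20. Within the stretch of 8, the 2 Gm members stand among genes of other courses. Gm13023 was lower in aged than in young oocytes in every library, and Gm13084 was at 39.9 to 49.3 FPKM in young, 39.2 to 66.2 in aged and 30.7 to 42.5 in NMN libraries.

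Gm13083 (Pramel21), at the end of that stretch, is named here after its values were seen. After scaling, 1 of the 14 other tested family genes, Gm13083, was higher in every aged than in every young library, where 11.5% of all tested genes were. Of the same 14, 6 were lower in every aged library, where 12.7% of all tested genes were. Gm13083 was at 2.11, 0.303 and 0.506 FPKM in young, 4.52, 5.01 and 3.63 in aged and 1.95, 0.282 and 1.23 in NMN libraries. Its 1 transcript gave an estimated 87, 13 and 24 reads in young, 193, 201 and 149 in aged and 81, 13 and 50 in NMN libraries. The log2 change from young to aged was 1.52 ± 0.36 (limma adjusted p = 0.0639) and from aged to NMN -1.39 ± 0.36 (limma adjusted p = 0.179). Without young replicate 1 the first of these was 1.90 and passed the test (limma adjusted p = 0.0476), as it did without NMN replicate 2 (limma adjusted p = 0.0497). Without any other single library it did not pass, with a limma adjusted p of up to 0.232 (without young replicate 3). The change was 1.28 without young replicate 2. It did not pass without the filter (limma adjusted p = 0.19). With library quality weights it passed (limma adjusted p = 0.00494), as did 906 of all 9168 tested genes. The transcript of Gm13083 aligned with those of Gm13103 and Gm13089 at 59.6% and 61.0%. Its promoter window lacks the pair of words.

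**Figure D5:**
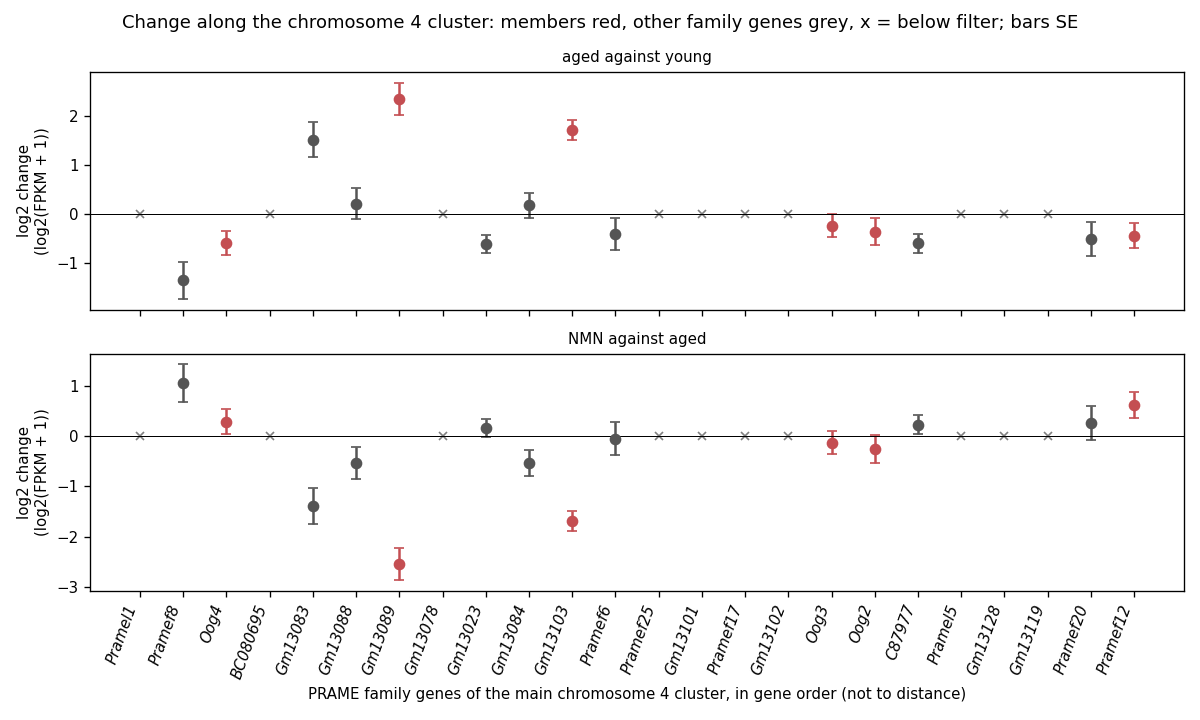
Log2 change on the scale of log2(FPKM + 1), with its SE, for the PRAME family genes of the main chromosome 4 cluster in gene order (equal steps, not distance), aged against young above and NMN against aged below. Members are red, other family genes grey, and crosses at 0 mark genes below the filter, for which no change was computed. Gm13089 (2.35 and -2.54) and Gm13103 (1.71 and -1.68) stand out among neighbours near or below 0 in the upper panel, together with Gm13083.

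Genes of pathways in which PRAME family proteins have been described, or that control oocyte genes, were read from a list of 25. All are in the table and 17 of them were tested. For aged against young limma called 1 higher and 0 lower (3 at an unadjusted p under 0.05, median log2 change 0.07), where 2.18% of all tested genes were called and 18.3% had an unadjusted p under 0.05. For NMN against aged and NMN against young it called 0, with 2 and 1 at an unadjusted p under 0.05, against 11.3% and 8.12% of all tested genes. The called gene was Elobl, an elongin B-like gene, at 116.5, 93.6 and 69.7 FPKM in young, 209.6, 872 and 336 in aged and 203.6, 86.7 and 127 in NMN libraries. Its log2 change from young to aged was 2.04 ± 0.43 (limma adjusted p = 0.0434), and 1.54 without aged replicate 2 (adjusted p = 0.0429). The call was lost without any one young library, aged replicate 3 or NMN replicate 3 (limma adjusted p of up to 0.17, without young replicate 3), and held without each of the other 4 libraries. It was also lost without the filter (0.151), with FPKM as deposited (0.0599), from the 6 libraries compared (0.0663) and under the replicate block (0.0893). Elob, Eloc and Rbx1 of the ligase were not called for aged against young (limma adjusted p of 0.177, 0.2815 and 0.967).

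Cul2, Ralgds, Uhrf1 and Nobox, which were to be described whatever their values, did not pass the test. Cul2, the cullin of the ligase, was at 6.26 ± 1.81 FPKM in young, 4.69 ± 2.08 in aged and 4.19 ± 1.30 in NMN oocytes (SD, n = 3; aged against young, limma adjusted p = 0.556). Ralgds, the Ral exchange factor, was at 0.673 ± 0.249, 1.38 ± 0.800 and 0.882 ± 0.180 FPKM in the same order (adjusted p = 0.355), with its highest value in aged replicate 2. Uhrf1, a maintenance factor of DNA methylation that a PRAME-like protein is known to target, was at 90.9 ± 21.3, 80.0 ± 21.1 and 106 ± 9.70 FPKM (adjusted p = 0.581). Nobox, an oocyte homeobox gene, was at 30.6 ± 4.66, 41.5 ± 4.99 and 38.1 ± 1.91 FPKM (adjusted p = 0.311).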

How the data were processed

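Messenger RNA was primed with oligo(dT), copied to full-length cDNA by Smart-seq2 and amplified, per the labels' protocols. The authors deposited 1 table, whose values are FPKM. Bowtie2 2.2.5, RSEM and the mouse build mm9 are named per the submitters' processing notes, and their roles, the annotation and any filter are not given in the sources used here. Reads that match several copies of a gene are split by estimation in such pipelines, which bears on near-identical members. Symbols were matched through GENCODE M21 for 22487 identifiers (99.83%). That annotation is on a later build, so it served for names, transcripts and gene order only. Depth was estimated from the whole-number steps of low values in 2659 genes with 1 transcript (96.6 to 97.7% whole within 0.02 reads). Counting error alone sets the floor of 3 reads.

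FPKM were divided by trimmed-mean factors, the filter kept the 9168 genes that reached 1 FPKM in 3 or more libraries, and limma 3.58.1 under R 4.3.3 was fitted to log2(FPKM + 1) over all 9 libraries, with a variance trend, robust moderation and Benjamini-Hochberg adjustment over all tested genes. An adjusted p under 0.05 made a call. The scale understates changes of low genes. The steps were tested on simulated data. Word and promoter searches used Biopython 1.88.

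The members and lists were chosen with earlier results of these data known. Named were the 7 members, called relatives and the 3 most abundant ones, called partners with Cul2, Ralgds, Uhrf1 and Nobox, and for each member the 2 genes outside the family most alike. One gene that this rule names is not reported here. Alternatives were the offset, filters, scalings, moderation, library weights, libraries fitted, the replicate block and leaving out each library. The groups share replicate numbers, for which no label names an animal or a day. Same-numbered NMN and young libraries deviated together (correlations 0.497, 0.119 and 0.142) and met the criterion for pairs (all over 0.1). Unlike-numbered ones ran from -0.396 (NMN replicate 1, young replicate 3) to 0.289 (NMN replicate 2, young replicate 3). These values thus do not settle whether the libraries are paired. The values given are from the fit without the block, and the blocked fit is given where it changes a count. Same-numbered aged and young (-0.339, -0.267 and 0.314) and NMN and aged libraries (-0.372, -0.359 and 0.199) did not meet the criterion for pairs.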

Additional observations from a re-analysis of the deposited data

How the results depend on the processing

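Oog1 to Oog4 and Pramef12 gave 270 values under the alternatives over 15 comparisons, of which 263 kept direction and side of the threshold, 2 became calls and 5 changed sign. The 2 calls came from library quality weights (Oog1, -0.94 from young to aged and -1.17 from young to NMN), so that 1 of the 5 genes was called in each of these comparisons. Sign changes came only from leaving out 1 library and all lie near 0: Oog1 in NMN against aged without NMN replicate 1 (0.09, 0.088), Oog3 in aged against young without aged replicate 2 (0.01, 0.0134) and in NMN against aged without aged replicate 1 (0.07, 0.0725), and Pramef12 in NMN against young without young replicate 2 (-0.0042) or NMN replicate 2 (-0.065). Over all fits without 1 library, these results ran from -0.52 to 0.09 (Oog1), -0.44 to 0.01 and -0.38 to 0.07 (Oog3) and -0.065 to 0.36 (Pramef12). Leaving out any library left the member calls at 0 to 0. The cause of these differences was not tested. The 2 Gm genes gave 82 values, of which 76 stayed within their spread and 6 moved, all with log2(FPKM + 0.1). Without any aged library, and with a minimum of 10 FPKM, they fall below the filter and have no value.

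For all genes, the 200 calls of aged against young became 31 without a filter, 97 with a minimum of 10 FPKM, 906 with library quality weights and 132 from the 6 libraries compared, and 20 (without young replicate 2) to 210 (without aged replicate 2) with a library left out. The 20 calls of NMN against aged became 9, 3, 163 and 6, and 5 to 26. The 7 calls of NMN against young became 0, 1, 73 and 17, and 1 to 14, and 3 with FPKM as deposited. With the replicate number as a block (replicate block), aged against young had 73 calls, NMN against aged 15 and NMN against young 0, and the block changed no call among the members. Among the other PRAME family genes the 1 call of aged against young became 0 with log2(FPKM + 0.1), without a filter, with a minimum of 10 FPKM, under the replicate block and from the 6 libraries compared, 6 with library quality weights, and 0 to 1 with a library left out. Their 0 calls of NMN against aged became 2 with library quality weights and 0 to 1 with a library left out. For aged against young, the 1 call with a library left out was D5Ertd577e only without aged replicate 1. Without young replicate 1 and without NMN replicate 2 it was Gm13083, called higher.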
